A study of Mus musculus with 6 samples.

Results

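The trophic and growth factor genes are 9 secreted signals that brain cells and infiltrating immune cells are known to release after ischemia, namely Igf1, Vegfa, Bdnf, Pdgfb, Gdf15, Tgfb1, Osm, Lif and Hbegf. Every probe whose transcript accession matched one of these symbols was taken, which gave 14 of the 56605 probes that were not controls, for 9 of 23462 named genes. Vegfa had 4 probes, Tgfb1 and Osm had 2 each, and the other 6 genes had 1 each. The question was whether microglia from mPGC-1α mice differed from control microglia in these signals after acute ischemic stroke (AIS).

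The control samples came from PGC-1α f/f mice, in which a PGC-1α sequence and eGFP, a fluorescent reporter, await activation by a recombinase at loxP sites. The mPGC-1α samples came from such mice that carried in addition a tamoxifen-inducible Cre recombinase under the Cx3cr1 promoter, which is active in microglia and in other mononuclear phagocytes, and were meant to overexpress PGC-1α, a coactivator of mitochondrial genes. The labels give male sex and an age of 10 weeks for all 6 samples, all mice had AIS, and no untreated sample or time after AIS is given in the labels. There were 3 arrays of control and 3 of mPGC-1α microglia, isolated with beads against the surface receptor P2RY12. No label says whether the samples came from separate animals, so the p-values measure only the spread between these samples.

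Growth factors act through surface receptors, most of them receptor tyrosine kinases. IGF1 and BDNF signal through IGF1R and NTRK2 and are known for the survival and plasticity of neurons. VEGFA, PDGFB and HBEGF act on endothelial cells, pericytes and epithelial or glial cells. TGF-β1 signals through SMAD proteins and maintains the microglial state, whereas OSM and LIF share the receptor chain gp130, encoded by Il6st, and signal through STAT3. Microglia are a known source of IGF1, TGF-β1 and OSM in the injured brain.

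The stretches upstream of the start sites are shown for 3 of the genes, because the groups separated on the Igf1 probe, Vegfa is a known hypoxia target, and Lif was the only upstream stretch with an AP-1 match. Each is 250 bases before an annotated start, 5′ to 3′ on the strand of the gene, from the RefSeq table of build GRCm38.p6 (Igf1 chr10:87860861-87861110, plus strand; Vegfa chr17:46032378-46032627, minus strand; Lif chr11:4257318-4257567, plus strand). Capitals mark letters that matched a searched motif on either strand.
Igf1: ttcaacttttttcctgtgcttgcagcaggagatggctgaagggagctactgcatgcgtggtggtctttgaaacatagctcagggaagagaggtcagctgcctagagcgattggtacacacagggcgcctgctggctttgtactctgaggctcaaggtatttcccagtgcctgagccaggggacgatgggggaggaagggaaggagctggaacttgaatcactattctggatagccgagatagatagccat
Vegfa: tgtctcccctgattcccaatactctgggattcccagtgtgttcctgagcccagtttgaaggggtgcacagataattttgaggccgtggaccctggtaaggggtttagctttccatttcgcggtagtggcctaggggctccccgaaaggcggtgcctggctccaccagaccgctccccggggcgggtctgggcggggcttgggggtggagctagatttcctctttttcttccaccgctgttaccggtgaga
Lif: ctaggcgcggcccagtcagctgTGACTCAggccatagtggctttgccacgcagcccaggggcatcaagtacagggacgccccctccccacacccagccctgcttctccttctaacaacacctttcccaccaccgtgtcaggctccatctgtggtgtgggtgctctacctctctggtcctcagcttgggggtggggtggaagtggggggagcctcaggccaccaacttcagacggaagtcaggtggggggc
The motifs searched were the estrogen-related receptor sequence TCAAGGTCA and its core AAGGTCA, the core of the hypoxia response element ACGTG, the cAMP response element TGACGTCA with the shorter TGACG inside it, and the AP-1 sequence TGACTCA. None of these letters occurred in the Igf1 stretch or in the Vegfa stretch shown, while the other Vegfa stretch in the table held the hypoxia core. The Lif stretch held the AP-1 sequence from base -228 to base -222 before the start, a match that 4.46% of the 32851 upstream stretches in the table also held. Of all stretches, 16.6% held the hypoxia core, 4.08% the estrogen-related receptor core, 0.387% its longer form, 1.55% the cAMP response element and 17.8% its shorter form. A match describes letters and is not evidence of binding. The table held 14 stretches for 6 of the 9 genes.

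A level below is the log2 intensity of a probe after subtracting the log2 75th percentile of its array. A difference is the mPGC-1α mean minus the control mean on that log2 scale. The signal was well above background on 71.0% to 86.5% of the spots of an array, 0 spots were saturated, and the number of arrays limits the precision. Arrays 1 and 2 of each group lay on a first slide, and the arrays numbered 3 shared a second slide, where the scanner software marked more spots as outliers (3010 and 4931, against 549 to 1094). Xist, the transcript of the inactive X chromosome, lay between -0.57 and -0.11 on 5 arrays but at -4.83 on control array 2, the only array on which 4 of 7 Y-linked probes were well above background. Control array 2 thus had the pattern that the male label calls for. The other 5 arrays, among them every mPGC-1α array, had largely the pattern of female samples, although all are labelled male. Group and this pattern therefore overlap in part, and its part in the values below was not tested. The differences of the 9 genes without control array 2 are given below, with those of other genes where a call or the size changed. Ppargc1a, which encodes PGC-1α, had levels of -1.05, -0.55 and -0.53 in controls 1 to 3 and of -1.08, -0.86 and -1.12 in mPGC-1α samples 1 to 3. Its difference was -0.31 (SE 0.24, limma adjusted p = 0.798), so this probe did not show the overexpression, and mPGC-1α is used below only as the label that a sample carries. In the strain that the paper names, the Cre is part of an allele of Cx3cr1 itself, so mPGC-1α mice differ from controls at that locus. For Cx3cr1, that allele and any effect of PGC-1α cannot be told apart here. Cx3cr1, the locus whose promoter drives the Cre, read 4.19, 3.66 and 4.11 in controls 1 to 3 and 2.79, 2.36 and 3.13 in mPGC-1α samples 1 to 3. Every mPGC-1α array lay below every control array, with a difference of -1.23 (SE 0.24, limma adjusted p = 0.684). Without control array 2 it was -1.39 (limma adjusted p = 0.014). In that setting 2102 of 39288 probes over the whole array passed, 1962 of them lower, so a gene that passed there was 1 of many.

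Across the 9 genes no difference passed the test. With limma and Benjamini-Hochberg adjustment over 40745 tested probes, 0 of the 9 genes had an adjusted p below 0.05, where 0% of all probes did, and 0 of 9 had an unadjusted p below 0.05, where 7.17% of all probes and 6.09% of all genes did. This fit did not use the replicate number. With the number as a block, 0 of 9 passed the adjustment and 1 of 9, Osm, had an unadjusted p below 0.05 (limma adjusted p = 0.150). Of all probes, 4808 of 40745 had an unadjusted p below 0.05 in that fit. With quantile normalization as well, Osm and Bdnf had an unadjusted p below 0.05, where 4252 of 40745 probes did. By the brightest tested probe, 6 genes had a higher mean in mPGC-1α samples and 3 a lower one, against 64.0% higher among all 18222 genes tested. The median difference of the 9 genes was 0.13, and that of all genes was 0.11. Control and mPGC-1α levels were fully separate for 1 of the 9 genes, Igf1, where 11.9% of all genes measured on 6 arrays did not overlap (8.48% higher and 3.45% lower). The sign of the difference was the same on both slides for 6 of the 9 genes, against 65.9% of all genes.

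**Figure D1:**
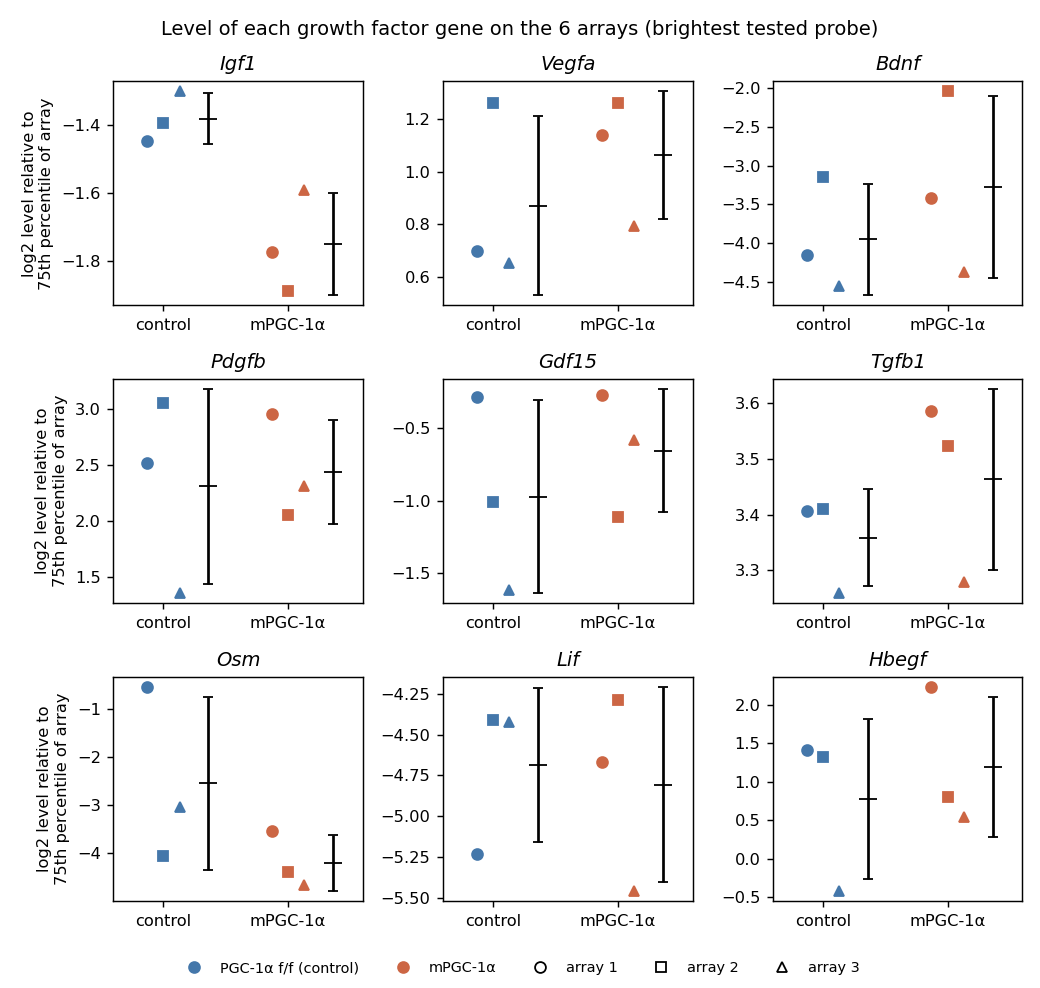
Log2 level of each gene relative to the 75th percentile of the array (y axis, a scale of its own in each panel) on the 3 control and 3 mPGC-1α arrays, by the brightest tested probe. Circles, squares and triangles are arrays 1, 2 and 3 of a group, and the bar beside each group is its mean ± SD (n = 3). Only in the Igf1 panel do the groups not overlap, and control array 3 is the lowest point in 6 of the 9 panels.

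Igf1, the trophic factor that microglia release towards neurons and that binds IGF1R, was the gene whose arrays separated. On its probe (A_51_P147942) the levels were -1.45, -1.40 and -1.30 in controls 1 to 3, averaging -1.38 ± 0.07 (SD, n = 3). They were -1.77, -1.89 and -1.59 in mPGC-1α samples 1 to 3, averaging -1.75 ± 0.15 (SD, n = 3). Every mPGC-1α array thus lay below every control array. The difference was -0.37 (SE 0.23), or 1.29-fold lower, with a 95% interval from -0.89 to 0.16 and a limma adjusted p = 0.763. The exact two-sided permutation test over 20 assignments gave p = 0.1, the smallest value that 3 against 3 arrays allow. Any probe whose groups do not overlap gets this value, so it adds nothing to the separation. By slide the difference was -0.41 (first) and -0.29 (second), and it lay between -0.45 and -0.30 with any single array left out. Without control array 2 it was -0.38 (limma adjusted p = 0.316). Igf1r, the receptor, had a difference of 0.38 (SE 0.18, limma adjusted p = 0.710), with control levels from 2.13 to 2.34 and mPGC-1α levels from 2.43 to 2.75.

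Bdnf, the neurotrophin that binds NTRK2, was dim and spread widely between arrays. Its levels were -4.15, -3.15 and -4.54 in controls 1 to 3, and -3.41, -2.04 and -4.37 in mPGC-1α samples 1 to 3. In each group array 2 was the highest and array 3 the lowest, and the groups overlapped. The difference of 0.67 (SE 0.59, 95% interval -0.65 to 1.99, limma adjusted p = 0.815) was smaller than the spread between the mPGC-1α arrays (SD 1.17, n = 3). It fell to 0.06 without mPGC-1α array 2, was 1.07 without control array 2, and was 0.20 after normexp background correction with quantile normalization. The neuron markers, of which 10 of 10 were measured, had a summed level of 5.33 to 6.04 on the control arrays and of 6.02 to 6.22 on the mPGC-1α arrays. Snap25, with means of 5.68 in controls and 5.97 in mPGC-1α samples, made up most of that sum, and its difference was 0.30. Of the 10 neuron markers, 9 were higher, 5 of them at an unadjusted p below 0.05. Their median difference was 0.91, and their part in the Bdnf values was not tested. Ntrk2, the BDNF receptor, which astrocytes also express, had a difference of -0.67 (SE 0.31, limma adjusted p = 0.707).

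Vegfa, the angiogenic factor of the hypoxia response, was measured by 4 probes that did not move together. On the brightest (A_52_P638895) the levels were 0.70, 1.26 and 0.65 in controls 1 to 3 and 1.14, 1.26 and 0.79 in mPGC-1α samples 1 to 3. The groups overlapped, with array 2 highest in each. The difference was 0.19 (SE 0.24, 95% interval -0.35 to 0.74, limma adjusted p = 0.878), and it was 0.39 without control array 2. The second brightest (A_52_P249424) differed by -0.02 and the dimmest (A_55_P2741794) by 0.0031. On the third probe (A_51_P482552) the levels were -0.86, -0.91 and -0.43 in controls 1 to 3 and -1.15, -0.93 and -1.30 in mPGC-1α samples 1 to 3. The groups did not overlap there, although control array 2 and mPGC-1α array 2 differed by only 0.02. That difference was -0.39 (SE 0.24, limma adjusted p = 0.762), and the mean over the 4 probes gave -0.05. The direction for Vegfa therefore depended on the probe.

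Pdgfb, which recruits pericytes to vessels through PDGFRB, had levels of 2.51, 3.06 and 1.35 in controls 1 to 3. In mPGC-1α samples 1 to 3 they were 2.95, 2.05 and 2.31. The control arrays spanned the whole range of the mPGC-1α arrays. The difference was 0.13 (SE 0.41, 95% interval -0.79 to 1.05, limma adjusted p = 0.954), leaving out control array 3 gave -0.35, leaving out mPGC-1α array 1 gave -0.13, and leaving out control array 2 gave 0.51. Pdgfrb, a marker of pericytes, was at -2.92, -2.36 and -2.63 in controls 1 to 3 and at -1.95, -2.02 and -1.98 in mPGC-1α samples 1 to 3. Its difference of 0.65 (SE 0.26) did not pass (limma adjusted p = 0.686), although the groups did not overlap. The endothelial and mural markers (7 of 10 tested, 5 higher and 2 lower, with 7 in the sum) summed to 4.16 to 4.56 in controls and 3.75 to 4.90 in mPGC-1α samples. Ly6c1, with means of 4.25 in controls and 4.33 in mPGC-1α samples, made up most of that sum. The 2 lower markers were Slco1a4 (-1.17, SE 0.34, limma adjusted p = 0.684) and Pecam1 (-1.22, SE 0.62, limma adjusted p = 0.715). Without control array 2 these were -1.42 (limma adjusted p = 0.042) and -2.09 (limma adjusted p = 0.0013).

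Hbegf, a ligand of the EGF receptor that is made quickly after injury, spread as widely as Bdnf. Its levels were 1.41, 1.33 and -0.42 in controls 1 to 3 and 2.23, 0.80 and 0.54 in mPGC-1α samples 1 to 3. Array 1 was the highest and array 3 the lowest in each group. The difference was 0.41 (SE 0.55, 95% interval -0.83 to 1.66, limma adjusted p = 0.887). Leaving out control array 3 gave -0.18, leaving out mPGC-1α array 1 gave -0.11, and leaving out control array 2 gave 0.69. Of the 15346 other genes well above background on all 6 arrays, the array profile most like that of Hbegf was that of Gm11545, with a root mean square distance of 0.07 between the centred log2 profiles, against a median of 0.84 for all these genes. The next were 4930487H11Rik (0.17) and 5430440P10Rik (0.21).

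**Figure D2:**
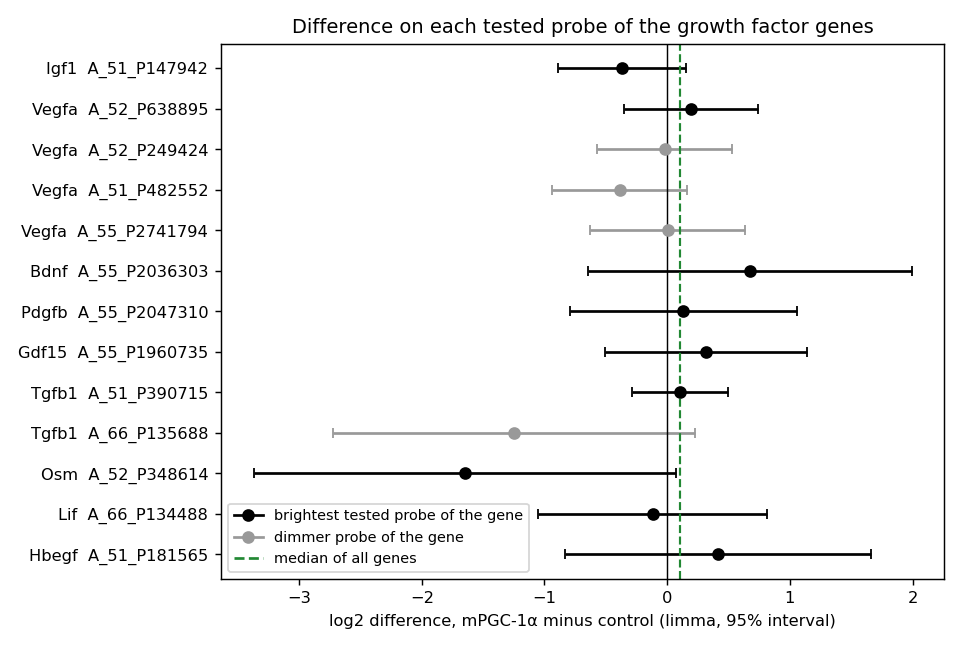
Log2 difference, mPGC-1α minus control, on the 13 tested probes of the 9 genes (x axis), with the 95% interval from limma. Black points are the brightest tested probe of a gene, grey points its dimmer probes, and the dashed line is the median of all genes (0.11). All 13 intervals include 0.

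Tgfb1, the SMAD-dependent factor that keeps microglia in their resting identity, had the smallest range over the 6 arrays (0.33) among the brightest tested probes of the 9 genes, while the SD within groups was smaller for Igf1 (0.119) than for Tgfb1 (0.130). On its brighter probe (A_51_P390715) the levels were 3.41, 3.41 and 3.26 in controls 1 to 3, averaging 3.36 ± 0.09 (SD, n = 3). In mPGC-1α samples 1 to 3 they were 3.59, 3.52 and 3.28, averaging 3.46 ± 0.16 (SD, n = 3). In each group array 3 was the lowest, and mPGC-1α array 3 lay within the range of the control arrays. The difference was 0.10 (SE 0.17, 95% interval -0.29 to 0.50, limma adjusted p = 0.911), close to that of the median gene, and it was -0.05 after quantile normalization. Without control array 2 it was 0.13. The dimmer probe (A_66_P135688) spread over 2.27, 0.04 and 1.21 in controls 1 to 3 and was at -0.83 and 0.67 on mPGC-1α arrays 1 and 2, while the spot of mPGC-1α array 3 was marked as an outlier and left out. Its difference was -1.25 (SE 0.64, limma adjusted p = 0.722), and -0.87 with that spot kept.

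Gdf15, a stress-induced member of the TGF-β family whose receptor GFRAL is known from the hindbrain, had levels of -0.29, -1.01 and -1.62 in controls 1 to 3. In mPGC-1α samples 1 to 3 they were -0.27, -1.11 and -0.58. Arrays 1 and 2 matched closely between the groups, and the difference of 0.32 (SE 0.37, 95% interval -0.50 to 1.14, limma adjusted p = 0.865) became -0.01 (-0.00634) without control array 3. It was 0.30 without control array 2. By slide it was -0.04 (first) and 1.04 (second). Gfral did not pass the filter on dim probes and was not tested. Of the genes of the integrated stress response, which is known to induce Gdf15, 9 of 10 were tested and 0 had an unadjusted p below 0.05. Of these 9, 8 were higher and 1 was lower, with a median difference of 0.25 against 0.11 for all genes, and the smallest unadjusted p was that of Ddit3 (difference 0.38, SE 0.22). When control array 2 was left out, 4 of the 9 had an unadjusted p below 0.05, all higher, and 0 passed the adjustment. In that setting 8637 of 39288 probes had an unadjusted p below 0.05.

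Osm, the cytokine of the IL-6 family that microglia and myeloid cells release, gave a different answer on each of its probes. The brighter probe (A_55_P2830665) was marked as an outlier on control array 3 and on mPGC-1α arrays 1 and 3, which left it untested. With the marked spots kept, its levels were 1.70, 1.46 and 0.91 in controls 1 to 3 and 2.15, 0.82 and 1.71 in mPGC-1α samples 1 to 3. The groups overlapped, and the difference was 0.20 (SE 0.35, limma adjusted p = 0.907). On the dimmer probe (A_52_P348614) the levels were -0.56, -4.06 and -3.04 in controls 1 to 3 and -3.54, -4.40 and -4.66 in mPGC-1α samples 1 to 3. Control array 1 stood far above the other 5, and control array 2 lay within the range of the mPGC-1α arrays. The difference was -1.65 (SE 0.76, 95% interval -3.37 to 0.07, limma adjusted p = 0.706), the largest in size among the 9 genes. It was -0.65 without control array 1, -2.40 without control array 2 (limma adjusted p = 0.10), while a block for the replicate number gave a limma adjusted p = 0.150. The array profiles most like this probe were those of probes of Slc15a4 (root mean square distance 0.30), Gna12 (0.36) and Zfp384 (0.43), against a median of 1.5. Control array 1 was also the highest on each of the 3, which follows from choosing them by likeness. For Bdnf the most similar profiles were those of Gm35688 (0.195), Golga7b (0.21) and En2 (0.24), against a median of 0.83.

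Lif, the other cytokine of this family, was near the detection limit. Its levels were -5.23, -4.41 and -4.42 in controls 1 to 3 and -4.67, -4.29 and -5.46 in mPGC-1α samples 1 to 3. The last of these was not well above background. The groups overlapped, with a difference of -0.12 (SE 0.42, 95% interval -1.05 to 0.82, limma adjusted p = 0.960). Leaving out control array 2 gave 0.02, leaving out control array 3 gave 0.01, and leaving out mPGC-1α array 3 gave 0.21.

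**Figure D3:**
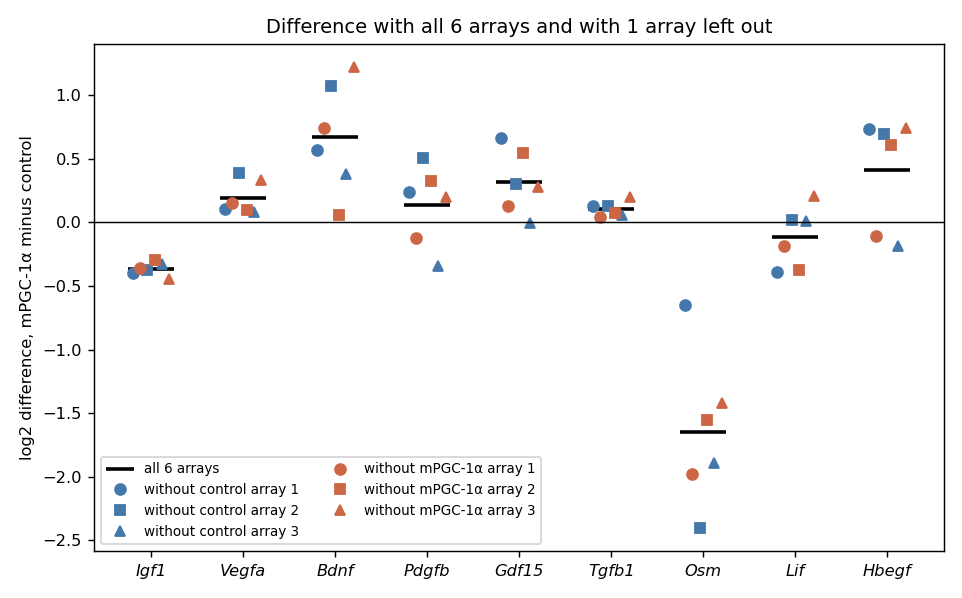
Log2 difference, mPGC-1α minus control, of each gene (y axis) with all 6 arrays (black bar) and with 1 array left out (blue for a control array, orange for an mPGC-1α array, with circles, squares and triangles for arrays 1, 2 and 3). Igf1 stays between -0.45 and -0.30, Osm ranges from -2.40 to -0.65, and Pdgfb, Gdf15, Lif and Hbegf lie on both sides of 0.

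The receptors of these factors were read next, by 14 tested genes of 17. None passed the adjustment, 9 were higher and 5 were lower, and the median difference was 0.18 against 0.11 for all genes. At an unadjusted p below 0.05, 2 were higher and 0 lower, where 3.41% of all genes were higher and 2.68% lower. They were Pdgfrb, given above, and Osmr, the chain specific to OSM. Osmr was at -4.66, -3.50 and -5.23 in controls 1 to 3 and at -3.33, -3.47 and -2.85 in mPGC-1α samples 1 to 3. The groups did not overlap, but mPGC-1α array 2 and control array 2 lay side by side. The difference was 1.25 (SE 0.45, limma adjusted p = 0.684), and it passed without control array 2 (1.73, limma adjusted p = 0.024). Lifr and Il6st, the chains for LIF and the shared gp130, differed by 0.27 (SE 0.21) and 0.24 (SE 0.22).

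Among 11 tested genes of 12 known to respond to OSM and LIF through STAT3, 9 were higher and 2 were lower, against 64.0% higher among all genes. The median difference was 0.39 against 0.11 for all genes, and 0 passed the adjustment. At an unadjusted p below 0.05, 3 were higher and 0 lower, where 3.41% of all genes were higher and 2.68% lower. Stat3, the transcription factor of the pathway, was at 3.53, 3.57 and 3.54 in controls 1 to 3 and at 4.04, 4.08 and 4.27 in mPGC-1α samples 1 to 3, with a difference of 0.58 (SE 0.16, limma adjusted p = 0.684). Bcl3, an atypical IκB protein, was at 0.56, 0.80 and 0.97 in controls 1 to 3 and at 1.37, 1.49 and 1.78 in mPGC-1α samples 1 to 3, a difference of 0.77 (SE 0.21, limma adjusted p = 0.684). Il4ra, a receptor chain for IL-4, differed by 0.46 (SE 0.20, limma adjusted p = 0.690). The groups did not overlap on any of these 3 genes. They were named for the smallest unadjusted p in the list, which favours genes without overlap. Of all genes measured on 6 arrays, 8.48% separated with higher mPGC-1α levels. On the same arrays the median difference was 0.97 for the astrocyte, 0.91 for the neuron and 0.87 for the oligodendrocyte markers, whose part in these values was not tested. Only Fgl2 of the OSM and LIF response genes passed without control array 2, and it was lower (-1.20, limma adjusted p = 0.047).

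Of the 12 response genes of the TGF-β pathway, all tested, 7 were higher and 5 were lower, and the median difference was 0.11, like that of all genes. Bhlhe40 and Id1, both transcriptional regulators, had differences of -0.69 (SE 0.31) and -0.76 (SE 0.41). Bhlhe40 passed without control array 2 (-1.0, limma adjusted p = 0.047).

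Relatives of the 9 factors were tested for 20 of 25 genes, of which 10 were higher and 10 were lower, with a median difference of 0.04. At an unadjusted p below 0.05, 0 were higher and 2 were lower, where 3.41% of all genes were higher and 2.68% lower. Tgfb2, the neural isoform of TGF-β, was at 0.82, 1.76 and 1.53 in controls 1 to 3 and at 0.21, 0.62 and 0.18 in mPGC-1α samples 1 to 3. The groups did not overlap, and the difference was -1.03 (SE 0.28, limma adjusted p = 0.684). Pdgfd differed by -1.31 (SE 0.49, limma adjusted p = 0.685), and Areg, an EGF receptor ligand like HBEGF, by 0.61 (SE 0.33, limma adjusted p = 0.734).

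Binding, activation and processing partners were tested for 17 of 18 genes, with 11 higher, 6 lower and a median difference of 0.17. Adam10, a sheddase of growth factor precursors, alone had an unadjusted p below 0.05, with a difference of -1.05 (SE 0.44, limma adjusted p = 0.687) that rested on widely spread control arrays. Its levels were 0.01, -1.85 and -0.41 in controls 1 to 3 with mPGC-1α samples from -2.04 to -1.67. The difference was -1.60 and passed without control array 2 (limma adjusted p = 0.0074). Igfbp2, an IGF-binding protein, differed by -0.57 (SE 0.26, limma adjusted p = 0.704) and Sort1, a sorting receptor for proneurotrophins, by 0.42 (SE 0.23, limma adjusted p = 0.739).

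The hypoxia response, of which Vegfa is a part, was read by 12 of 12 genes, of which 7 were higher and 5 were lower, with a median difference of 0.09. Pfkfb3, a regulator of glycolysis, was at 3.00, 2.62 and 2.71 in controls 1 to 3 and at 3.74, 3.41 and 3.36 in mPGC-1α samples 1 to 3. The groups did not overlap, and the difference was 0.73 (SE 0.20, limma adjusted p = 0.684). Adm, which encodes the vasodilator adrenomedullin, differed by 0.68 (SE 0.27, limma adjusted p = 0.686), and Egln3, an oxygen sensor, by -1.17 (SE 0.63, limma adjusted p = 0.729). Without control array 2, Adm (0.93, limma adjusted p = 0.045) and Egln3 (-2.0, limma adjusted p = 0.014) passed, and Egln3 was -0.54 without control array 3. With all 6 arrays, none of the 7 lists of pathway genes held a gene that passed the adjustment, and the same held with the replicate block and with any array but control array 2 left out. When that array was left out, 7 of 90 tested pathway genes passed, where 2102 of 39288 probes over the whole array did. They were Osmr, Adm, Adam10, Egln3, Bhlhe40, Tgfa and Fgl2, the last pair named after their values were seen. Tgfa, a relative, differed by -1.02 (limma adjusted p = 0.046). Fgl2, an OSM and LIF response gene, differed by -1.20 (limma adjusted p = 0.047).

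**Figure D4:**
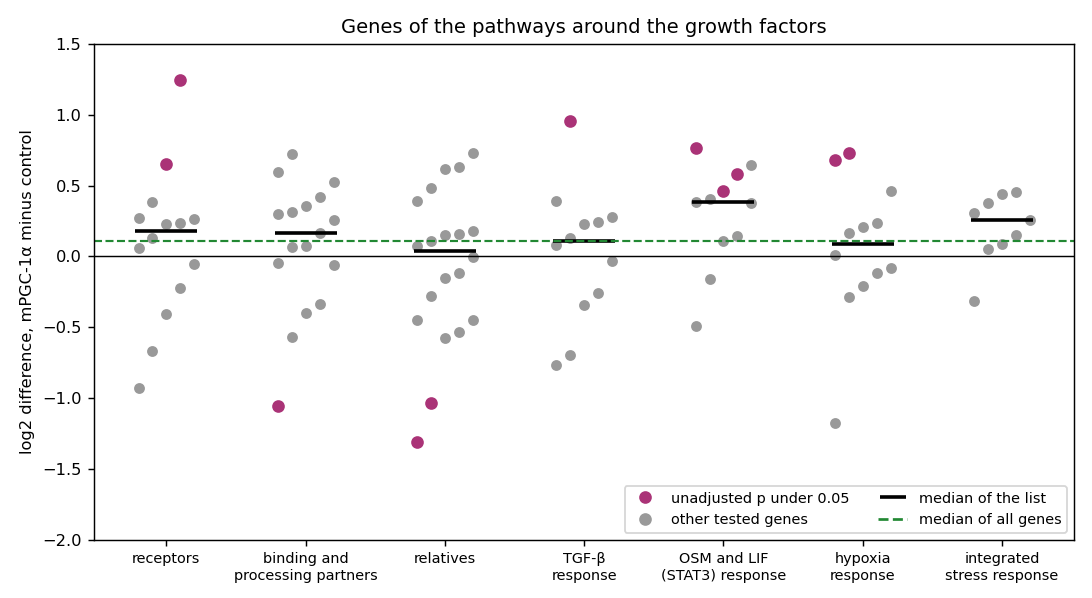
Log2 difference, mPGC-1α minus control, of each tested gene (points, y axis) in the 7 lists of pathway genes (x axis), by the brightest tested probe. Purple points had an unadjusted limma p below 0.05, bars are list medians and the dashed line is the median of all genes (0.11). The median of the OSM and LIF response genes (0.39) is the highest of the 7.

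Markers of cell types were read because the bead isolation could carry other cells along. In such bulk samples, fewer cells of a type and less RNA per cell cannot be told apart. Of 12 microglia markers 9 were tested, 3 higher and 6 lower, Cx3cr1 alone at an unadjusted p below 0.05 (given above), and the summed level of the 5 measured on all arrays was 6.38 to 6.75 on the control arrays and 6.37 to 6.45 on the mPGC-1α arrays. P2ry12 and Tmem119, the defining markers, were marked as outliers on 3 arrays each. With marked spots kept, P2ry12 averaged 4.22 ± 0.24 (SD, n = 3) in control and 4.22 ± 0.11 (SD, n = 3) in mPGC-1α samples. The astrocyte markers (9 of 10 tested, all 9 higher, with 9 in the sum) summed to 3.54 to 4.31 on the control and 4.43 to 5.95 on the mPGC-1α arrays, and the oligodendrocyte markers (10 of 10 tested, all 10 higher, with 8 in the sum) to 3.19 to 4.10 and 4.23 to 4.98. The monocyte and macrophage markers (10 of 10 tested, 2 higher, with 5 in the sum) summed to 5.07 to 5.45 and 4.65 to 5.68, and the neutrophil markers (7 of 10 tested, 4 higher, with 3 in the sum) to 4.65 to 5.15 and 3.93 to 5.36. The part of any of these cells in the values of the 9 genes and of the pathway lists was not tested.

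**Figure D5:**
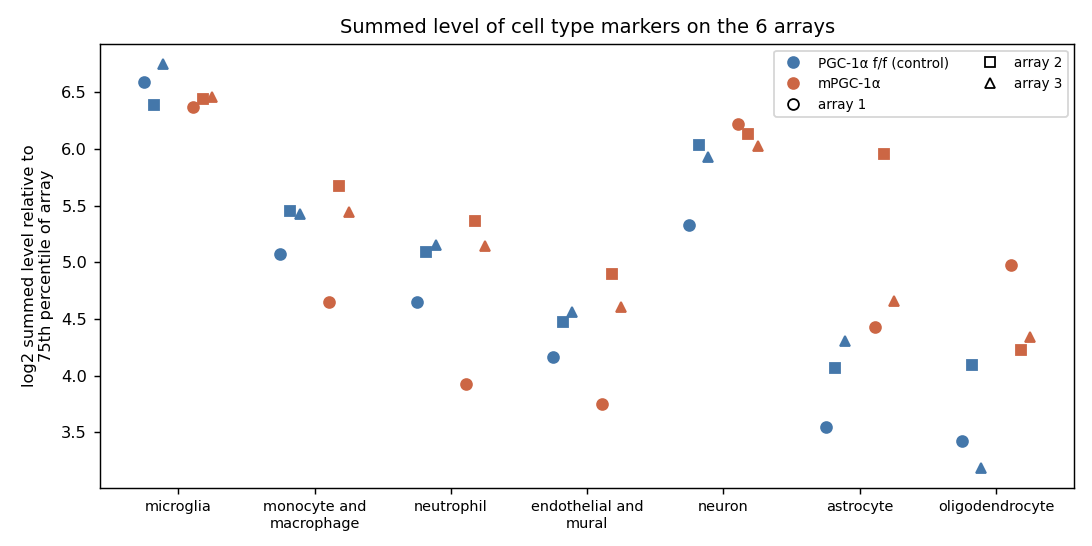
Log2 of the summed level of the markers of each cell type measured on all 6 arrays (y axis), relative to the 75th percentile of the array, for 3 control and 3 mPGC-1α arrays (circles, squares and triangles for arrays 1, 2 and 3). The groups do not overlap for the astrocyte and oligodendrocyte markers, and mPGC-1α array 1 is the lowest for the neutrophil, macrophage and endothelial markers.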

How the data were processed

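Microglia were isolated by the authors with P2RY12 beads, and total RNA was labelled and hybridised to Agilent mouse arrays, 1 array per sample. The deposited scanner files hold linear spot intensity values of 1 green channel, made with Agilent Feature Extraction 11.5.1.1 (background-subtracted and detrended, not normalized between arrays). A deposited matrix of log2 values came from GeneSpring, by steps that are not stated. The labels name both Cy3 and Cy5.

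Spots marked as outliers were left out and spots of a probe averaged. Each level is the log2 processed signal less the log2 75th percentile taken over all 56605 probes that were not controls. Marked spots were kept for the percentile, since they were bright and unequal between arrays. Without them it was 632 in place of 893 units on mPGC-1α array 3 and 1154 in place of 1179 units on control array 1. Testing required a signal well above background on every unmarked array of 1 group at least, and 2 or more values in each group (40745 probes). Accessions were matched to a RefSeq gene table (GRCm38.p6), for 33767 probes (59.7%). The array grid used an older build (mm9), so no gene coordinates are given beyond those of the upstream stretches (GRCm38.p6).

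The comparison used limma 3.58.1 in R 4.3.3 (lmFit, eBayes with intensity trend, two-sided, Benjamini-Hochberg, threshold 0.05). No array test is named in the methods of the study. Single probes also had an exact permutation test. The script was tested on simulated data. A gene is given by its brightest tested probe. Named genes are the 9 members, the 3 most similar array profiles for the genes with the largest difference (taken with and without Osm, whose brightest probe was not tested), and up to 3 genes of each list with the smallest unadjusted p, besides receptors and markers. A gene of the TGF-β response list is not reported here. The members and lists were chosen with earlier results of these data known. Arrays with the same replicate number deviated together (correlations 0.247, 0.224 and 0.171, against -0.337 to 0.0346 for different numbers). The labels do not say whether the numbers pair the arrays. Unless a block is named, the SE, intervals and p-values given are from the fit without pairing. With the replicate block the SE was 0.44 in place of 0.76 for Osm and 0.33 in place of 0.59 for Bdnf. The alternatives were other normalizations and background correction, the series matrix, other filters, marked spots kept, slide or replicate blocks, no intensity trend, the mean of all probes, and leaving out each array.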

Additional observations from a re-analysis of the deposited data

How the results depend on the processing

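Of 162 recomputed differences of the 9 genes, 60 equalled the reported one because the setting left the values used for that gene unchanged. Of the other 102, 87 kept their direction and 15 reversed. None of the 162 passed an adjusted p of 0.05. Tgfb1 became -0.0459 under quantile normalization, with or without the replicate block, -0.0914 after normexp with quantile normalization, -0.0375 in the series matrix and -0.0127 with the mean of all probes. Vegfa became -0.0530 with the mean of all probes, and Osm 0.20 on its brighter probe with marked spots kept. The cause was not tested. Lif was not tested under the stricter filter on dim probes. With 1 array left out, the differences ranged from -0.45 to -0.30 for Igf1, 0.08 to 0.39 for Vegfa, 0.06 to 1.22 for Bdnf, -0.35 to 0.51 for Pdgfb, -0.00634 to 0.66 for Gdf15, 0.04 to 0.20 for Tgfb1, -2.40 to -0.65 for Osm, -0.39 to 0.21 for Lif and -0.18 to 0.74 for Hbegf. The lowest adjusted p by limma in any alternative was 0.10, for Osm without control array 2.

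The count of all probes that passed was 0 and stayed 0 except with the replicate block (1 probe) and with 1 array left out, where it ranged from 0 to 2102. The 2102 probes passed without control array 2, where 0 of the 9 genes passed. With the replicate block 0 of the 9 genes passed, but Osm fell below an unadjusted p of 0.05, and the count of all probes below it was 4808 in place of 2921. Of the lists, only the replicate block and single arrays left out were run. With 1 array left out, the median difference ranged from 0.26 to 0.44 for the OSM and LIF response, -0.15 to 0.27 for the TGF-β response and -0.07 to 0.17 for the hypoxia response. For the integrated stress response it ranged from 0.04 to 0.51, so which list had the highest median depended on the array left out. The percentile over unmarked spots, the brighter Osm probe, the block with quantile normalization and the alternatives for lists were added after the results were seen. Dim probes such as those of Lif and Bdnf limit what 3 arrays can show.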
